A study of Homo sapiens with 10 samples.

Results

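ChIP-seq peaks lying within 1 Mb of either end of chromosomes 1 to 22 were described for 5 proteins in HCT116, a cell line from a human colorectal carcinoma. A peak was placed by its middle, and distance was measured to the first or last base of the hg19 chromosome. Of 681093 peaks on these chromosomes (688288 deposited), 26649 lay near an end: 5805 of 227631 in the Hexim1 list, 5539 of 182444 in the Larp7 list, 4911 of 118666 in the Cdk9 list, 3772 of 60660 in the KAP1 list and 6622 of 91692 in the list of total Pol II (antibody to its N-terminal region). They were set against the 558450 peaks that lay 5 Mb or more from an end, called the interior below. The series holds 10 libraries from 1 culture condition, with no treatment or mutant in the labels and 1 library per antibody. Its title concerns the bringing of the 7SK complex to promoters by KAP1. Lists of 5 libraries were used, and those of the input, 3 histone marks and Ser5-phosphorylated Pol II are not analysed here. Chromatin had been fixed in 1% formaldehyde for 10 min and sheared to 100 to 300 bp. With 1 library per antibody no value has a replicate check and no p-value is given, and the 95% intervals below treat peaks as independent and cover counting error only.

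Telomeres, the caps of chromosomes, are tandem repeats of TTAGGG. The subtelomeric sequence next to them is a patchwork of duplicated blocks that several chromosomes share, with gene families such as DDX11L, WASH and OR4F. Farther in, many human chromosome ends turn into GC-rich sequence dense in genes. Pol II is the polymerase that makes mRNA. Larp7 and Hexim1 belong to the 7SK ribonucleoprotein: Larp7 binds and stabilises the 7SK RNA, and Hexim1 inhibits P-TEFb, the kinase that releases paused Pol II and whose catalytic subunit is Cdk9. KAP1, encoded by TRIM28, is a chromatin co-regulator that KRAB zinc finger proteins bring to DNA, and many of the genes for those proteins stand in clusters near chromosome ends. The labels call the cells colonic endothelial. Pol II peaks were found at the promoters of 10 of 13 colon epithelium markers, CDH1 and EPCAM among them but not KRT20, VIL1 or LGALS4. They were found at 4 of 10 endothelium markers (11 were listed): CLDN5, EGFL7, ERG and ESAM had one, and CDH5, KDR and TEK did not. Over all 19222 coding promoters of chromosomes 1 to 22 the share with Pol II was 71.8%. The epithelium count lay near that share, so it does not by itself identify the cells.

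Of the 44 chromosome ends, 39 had sequence in the last 1 Mb; the short arms of chromosomes 13, 14, 15, 21 and 22 had none. These ends summed to 36.7 Mb of sequence without N, which is 1.37% of chromosomes 1 to 22, against 2493 Mb in the interior. Their GC content was 48.4%, against 40.5% in the interior. They held 636 coding genes, 17.3 per Mb, against 16843 genes, 6.76 per Mb, in the interior. Gene density was thus 2.57-fold higher near ends.

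At several ends the first sequence of the chromosome already had peaks of all 5 lists. Peaks of the 5 lists that overlapped by at least 1 bp were joined into merged sites, and a site was said to be in all 5 lists when it held a peak of each. At 16 of 39 ends a merged site began within 1 kb of the first sequenced base, and at 6 of 39 a site in all 5 lists did. By coordinate, unsequenced bases included, the 5 sites in all 5 lists nearest to an end lay on 17p, 18p, 1p, 4p and 2p. The 17p site began 4547 bases from its first sequenced base, while sites on 4q and 19q began 67 and 801 bases from theirs. The sequences below show what lay at 3 of the 5 sites nearest by coordinate. Each has 150 bases on either side of the summit of the site's Pol II peak of highest fold (GRCh37, 5′ to 3′). Capitals mark each TTAGGG or its complement CCCTAA.
17p, chr17:5863-6162, plus strand: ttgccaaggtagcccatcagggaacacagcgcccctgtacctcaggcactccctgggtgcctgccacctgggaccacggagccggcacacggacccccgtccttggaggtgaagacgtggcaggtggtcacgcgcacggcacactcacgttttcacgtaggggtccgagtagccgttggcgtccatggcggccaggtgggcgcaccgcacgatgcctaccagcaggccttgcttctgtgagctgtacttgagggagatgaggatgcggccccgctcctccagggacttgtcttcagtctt
18p, chr18:11934-12233, plus strand: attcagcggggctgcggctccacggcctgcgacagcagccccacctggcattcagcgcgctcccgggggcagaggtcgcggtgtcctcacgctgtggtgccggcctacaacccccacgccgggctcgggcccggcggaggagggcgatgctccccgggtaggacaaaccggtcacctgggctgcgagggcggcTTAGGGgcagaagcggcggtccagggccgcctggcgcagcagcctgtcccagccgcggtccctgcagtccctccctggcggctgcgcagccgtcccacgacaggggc
2p, chr2:11528-11827, plus strand: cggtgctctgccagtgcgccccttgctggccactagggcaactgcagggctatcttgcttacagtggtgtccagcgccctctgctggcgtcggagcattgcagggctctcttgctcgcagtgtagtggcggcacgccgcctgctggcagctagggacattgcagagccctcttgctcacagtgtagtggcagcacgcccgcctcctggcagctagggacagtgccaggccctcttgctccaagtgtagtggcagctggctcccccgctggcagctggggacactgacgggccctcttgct

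The 1p and 4p sites began 6 and 36 bases from the first sequenced base, in the telomere-type repeat itself. The 18p site, chr18:9894-13105, overlapped the first sequenced base and ran on through the repeat. The summit of its stronger Pol II peak, chr18:11665-12490 (fold 8.78), lay past the repeat in sequence of 74.7% GC. A weaker Pol II peak, chr18:9903-10163 (fold 5.27), overlapped the first sequenced base. The 17p and 2p windows held no unit. At 1p, chr1:10007-10688, the authors' fold was 9.50 for KAP1, 4.86 for Pol II, 5.94 for Cdk9, 5.97 for Hexim1 and 6.25 for Larp7. The fold is the deposited ratio of a peak over its background and was compared within a list only. KAP1 thus reached at 1p a fold that ranks 22nd among its 60660 peaks, and Pol II one that ranks 68719th of 91692.

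Tandem repeats of 3 or more TTAGGG units were found in 13 of 6811 merged sites near ends (0.191%, exact interval 0.102 to 0.326), against 9 of 280118 interior sites (0.00321%, 0.00147 to 0.00610). Both strands were searched. Of all 300 bp tiles of sequence, 0.0581% near ends and 0.000963% in the interior held such a repeat. Merged sites vary in width, so their shares are not directly comparable with those of the tiles. All 5 lists had a peak at 8 of the 13 sites near ends (1p, 4p, 4q, 6p, 7p, 12p, 18p and 20q). They did at 2 of the 9 in the interior and at 3 of 5 that lay 1 to 5 Mb from an end. The repeat was matched to the merged site, not to the peak of each list. Near ends the 8 sites were 682 to 5101 bp wide and the others 170 to 275 bp. Among all merged sites the share with all 5 was 25.7% near ends and 8.43% in the interior. The peak of highest fold in the KAP1 list was at one of the 13 sites with the repeat near ends. It lay on 12p, chr12:94306-95663, with a fold of 17.2, and the next KAP1 peak of chromosomes 1 to 22 had 13.3. The merged site, chr12:92898-95775, lies at the 5′ end of DDX11L8, a pseudogene of the DDX11L family, and also had folds of 8.75 for Cdk9, 9.18 for Larp7, 9.27 for Hexim1 and 11.01 for Pol II. In their own lists these ranked 29th for Cdk9, 74th for Larp7, 3201st for Hexim1 and 22072nd for Pol II.

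The 12p site had 5 near-identical copies in the genome, 4 of them near other ends, where a copy was an alignment of at least 240 of 300 bp at 95% identity. The 1p, 6p, 7p, 18p and 20q sites had none by that measure, and 4p and 4q had 1 each. Only the 300 bp at the middle of a site were searched, and a window without any alignment counted as none. A count of none therefore does not show that a repeat-bearing site is unique. How reads that map to several places were handled is not given in the sources used here, so signal cannot be assigned to a single copy. The input was not analysed, so whether peaks in the repeat reflect binding of the 5 proteins was not tested.

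In the lists as deposited, Pol II and KAP1 had the highest ratios of density near ends to density in the interior. Pol II had 181 peaks per Mb near ends, against 25.8 in the interior, a ratio of 7.00 (6.82 to 7.18), and KAP1 had 103 against 17.6, a ratio of 5.83 (5.64 to 6.03). Cdk9 had 134 peaks per Mb near ends and 38.5 in the interior (3.48, 3.38 to 3.58). The ratios of the 7SK proteins were lower in these lists, with 151 Larp7 peaks per Mb near ends against 62.3 (2.43, 2.36 to 2.49) and 158 Hexim1 peaks against 79.8 (1.99, 1.93 to 2.04). With peaks of −log10 q of at least 5 the order changed: the ratio was 7.47 for Pol II, 4.63 for Larp7, 4.37 for Hexim1, 4.32 for KAP1 and 3.98 for Cdk9. Near ends lay 7.22% of Pol II, 6.22% of KAP1, 4.14% of Cdk9, 3.04% of Larp7 and 2.55% of Hexim1 peaks, on 1.37% of the sequence.

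**Figure D1:**
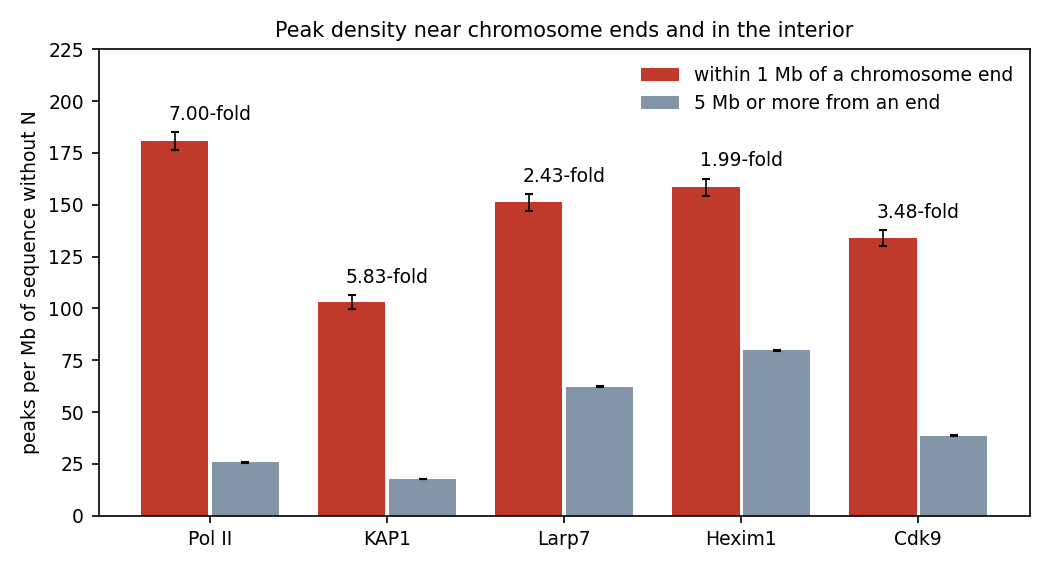
Peaks per Mb of sequence without N for each list, within 1 Mb of a chromosome end (red, left) and 5 Mb or more from an end (grey, right). Bars start at 0, whiskers are exact 95% Poisson intervals, and the number above each pair is the ratio, from 7.00 for Pol II to 1.99 for Hexim1.

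Counted per coding gene instead of per Mb, the order of the lists stayed but 2 of them turned round. Pol II had 10.4 peaks per coding gene near ends, against 3.82 in the interior (2.72-fold), KAP1 5.93 against 2.61 (2.27-fold) and Cdk9 7.72 against 5.70 (1.36-fold). Larp7 had 8.71 against 9.22 (0.945-fold) and Hexim1 9.13 against 11.8 (0.773-fold), so both were lower near ends on this scale. A merged site with Pol II held 2.56 Pol II peaks near ends and 1.41 in the interior. The counts were 1.56 and 1.11 for KAP1, 1.40 and 1.07 for Cdk9, 1.13 and 1.04 for Larp7, and 1.07 and 1.02 for Hexim1. Sites in all 5 lists were also wider near ends (median 2828.5 bp against 1550 bp), so these counts do not show that peaks were more broken up. With each merged site that held the list counted once, a count chosen after the data were seen, the Pol II ratio was 3.87 (3.72 to 4.02). This was below the 4.14 (3.97 to 4.31) of KAP1.

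Base composition moved with these densities. Windows of 10 kb were ranked by GC, and the decile of highest GC, 49.0 to 72.7%, held 44.3% of near-end sequence and 7.80% of the interior. Within that decile Pol II had 358 peaks per Mb near ends against 170 in the interior (2.11, 2.05 to 2.17), and KAP1 had 195 against 106 (1.84, 1.77 to 1.91). Cdk9 had 229 against 160 (1.43, 1.38 to 1.48). Larp7 had 221 against 220 (1.01, 0.973 to 1.04), and Hexim1 was lower near ends, 215 against 235 (0.915, 0.884 to 0.947). Over all 10 deciles, weighted by the near-end content, the ratio was 2.03 for Pol II, 1.80 for KAP1, 1.40 for Cdk9, 1.09 for Larp7 and 0.990 for Hexim1. For Pol II, KAP1 and Cdk9 the ratio was above 1 in each of the 6 deciles of highest GC, with intervals that reach below 1 in some of the lower ones. Each of the other 4 deciles held at most 13 near-end peaks of any of these lists. In deciles 5 to 9, counted from the lowest GC, the Larp7 ratio ran from 1.21 to 1.34, each interval above 1. The Hexim1 ratio there ran from 1.04 to 1.22, with intervals that reached below 1 in deciles 6 and 7. In the 4 deciles of lowest GC both ratios were below 1, with intervals that reached above 1.

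**Figure D2:**
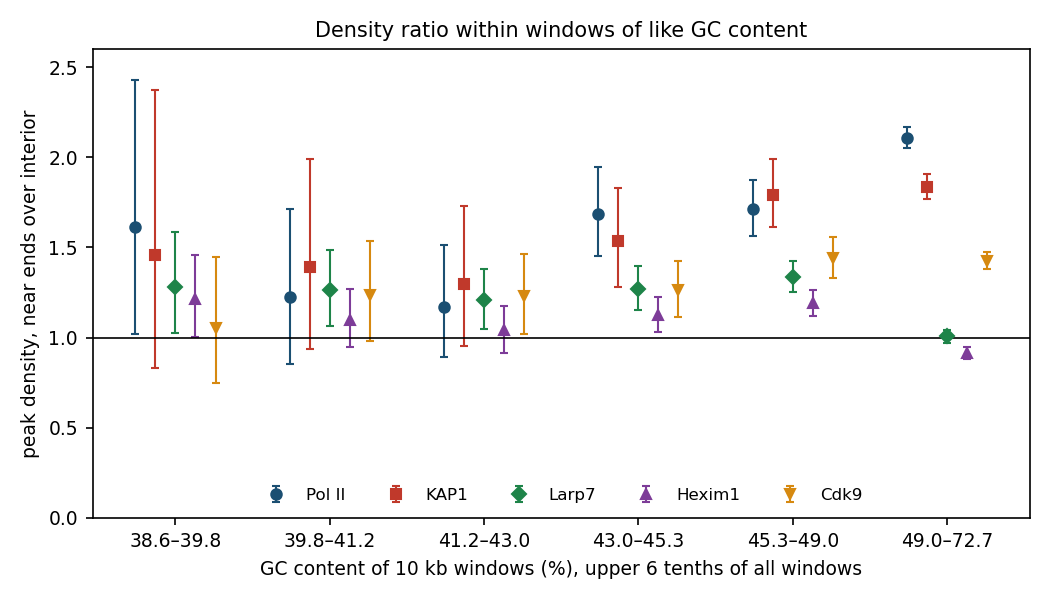
Ratio of peak density near ends over the interior within the 6 deciles of highest GC among 10 kb windows; points are ratios and whiskers exact 95% intervals. In the last decile Pol II stands at 2.11 and KAP1 at 1.84, while Larp7 is at 1.01 and Hexim1 at 0.915.

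By coordinate, unsequenced bases included, the peaks were not densest at the very end. Some ends, 11p, 16q and 20q among them, begin with 60000 unsequenced bases and add nothing to the first 50 kb. That stretch held 0.777 Mb of sequence, against 19.2 Mb from 500 to 1000 kb, so different sets of ends are compared. Pol II had 64.4 peaks per Mb in the first 50 kb, 55.5 from 50 to 100 kb and 81.3 from 100 to 250 kb, then 176 from 250 to 500 kb and 228 from 500 to 1000 kb. It kept 222 per Mb from 1 to 2 Mb, and had 104.6 from 2 to 5 Mb, 46.8 from 5 to 10 Mb and 21.7 beyond 20 Mb. KAP1 followed the same steps, with 48.9, 39.8, 56.3, 106 and 123 per Mb over the first 5 stretches and 14.9 beyond 20 Mb. Sites with a near-identical copy elsewhere made up 28.0% of merged sites in the first 50 kb and 1.91% from 500 to 1000 kb. Their part in the lower density of the first 250 kb was not tested. Against the 1 to 5 Mb stretch in place of the interior, near-end density was 1.35-fold for Pol II (1.31 to 1.39), 1.23-fold for KAP1, 1.16-fold for Cdk9, 1.08-fold for Larp7 and 1.07-fold for Hexim1.

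**Figure D3:**
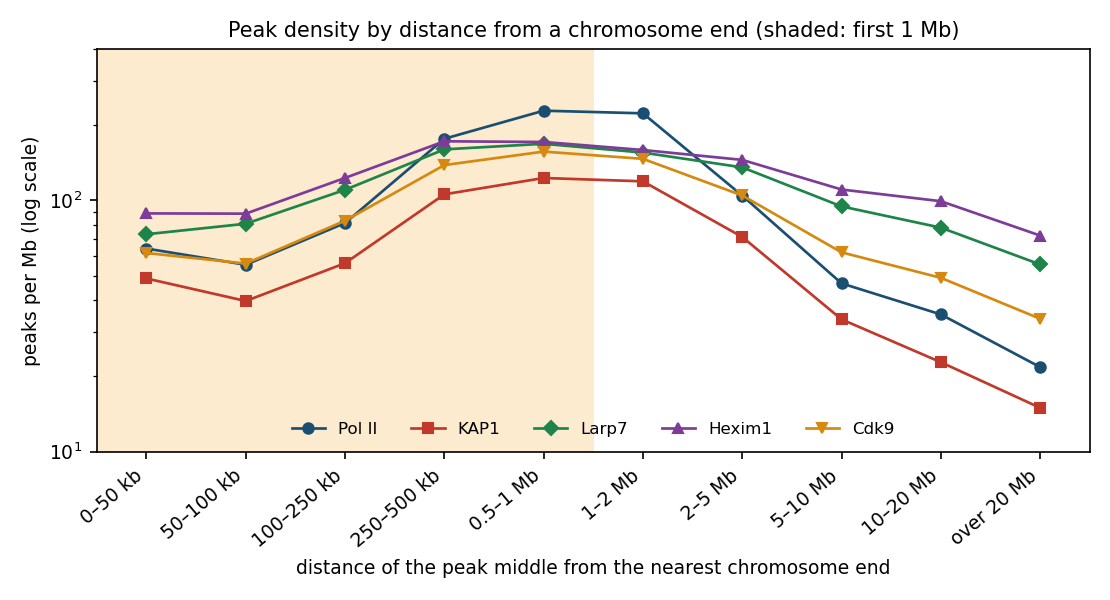
Peaks per Mb (log scale) by distance of the peak middle from the nearest chromosome end, unsequenced bases included, for the 5 lists. The shaded part is the first 1 Mb, and ends that begin with long unsequenced stretches are missing from its first part. Pol II has 64.4 per Mb in the first 50 kb, its highest value of 228 from 500 to 1000 kb and 21.7 beyond 20 Mb.

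Single ends spanned a wide range. The density of Pol II peaks per Mb was lowest at 3p (5.32), had a median of 164 and was highest at 16q (418). It exceeded the interior of the same chromosome at 35 of 39 ends, the exceptions being 1q, 3p, 9p and 14q. KAP1 did so at 36, Cdk9 at 37, Larp7 at 35 and Hexim1 at 34 ends, and 1q and 3p were below their interior in each of the 5 lists. Sites in all 5 lists were densest at 7p (108.5 per Mb), 17q (107.5), 13q (97.3), 16q (93.1) and 20q (82.3). They were sparsest at 3p (4.26), 18p (9.09), 1q (9.52), 14q (10.6) and 9p (11.1). The 7p end had 54.7% GC and 9 coding genes, all with the 5 proteins, while the 3p end had 36.9% GC and 1 coding gene, CHL1, a neural cell adhesion gene, which carried all 5. At 14q no gene had the annotation type protein-coding, the only type counted as coding here.

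Across the 39 ends the density of Pol II peaks went with GC content (Spearman's rho 0.94, Pearson's r 0.91) more closely than with the density of coding genes (rho 0.69, r 0.62). For KAP1 the values were rho 0.93 and r 0.90 with GC and rho 0.58 and r 0.49 with genes, and for Hexim1 rho 0.71 and r 0.73 with GC. These describe 39 ends that share the same 5 libraries. Short-arm ends (17 with sequence) had 167 Pol II and 89.9 KAP1 peaks per Mb, long-arm ends (22) 191 and 113, at 47.7% and 48.9% GC.

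**Figure D4:**
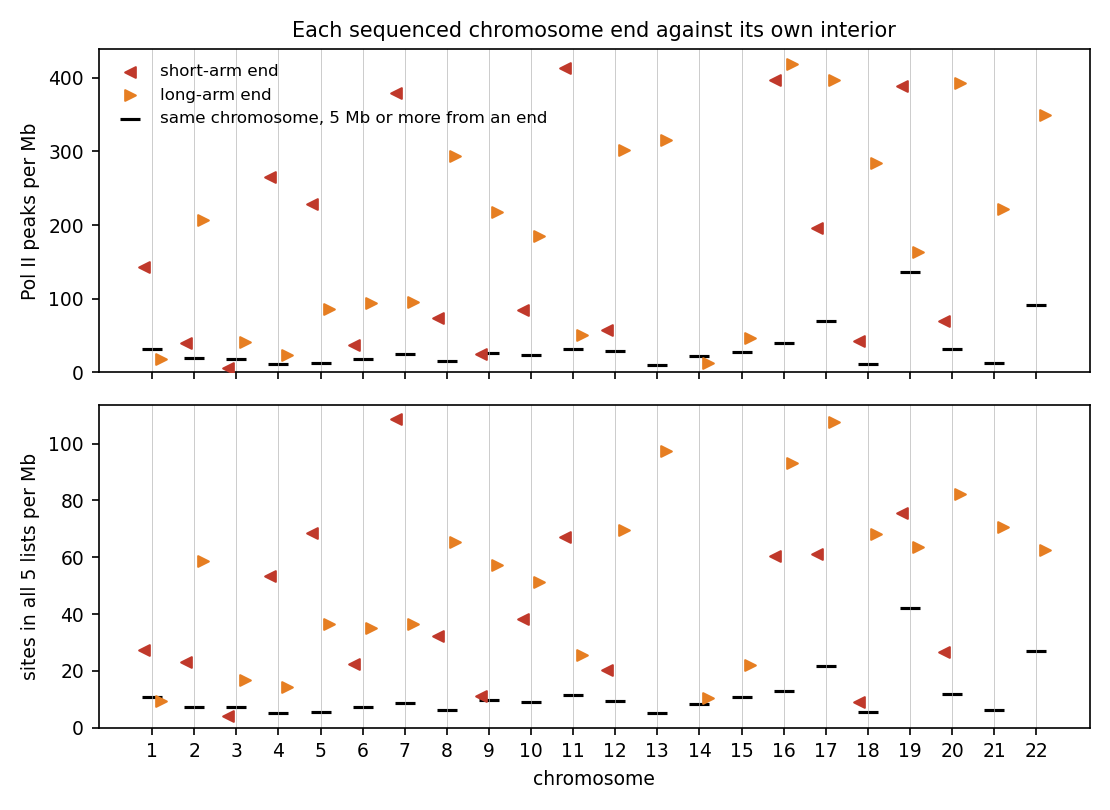
Pol II peaks per Mb (top) and merged sites in all 5 lists per Mb (bottom) at each of 39 ends with sequence, short-arm ends as left-pointing and long-arm ends as right-pointing triangles; black bars are the same chromosome 5 Mb or more from an end. Pol II runs from 5.32 per Mb at 3p to 418 at 16q.

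Merged sites near ends held all 5 proteins more often. The share was 1750 of 6811 near ends (25.7%, 24.7 to 26.7), against 23607 of 280118 in the interior (8.43%, 8.32 to 8.53), a difference of 17.3 percentage points (16.2 to 18.3). Over all merged sites it was 9.76%. Sites with a single list made up 32.6% near ends and 56.8% in the interior. Per Mb, sites in all 5 lists were 5.04-fold denser near ends (47.7 against 9.47), sites with Hexim1 alone 0.835-fold (27.5 against 33.0) and sites with Larp7 alone 0.987-fold (17.5 against 17.8). Sites of KAP1, Larp7, Hexim1 and Cdk9 that lacked Pol II were 4.05-fold denser (9.17 against 2.26).

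Seen from each list the share in all 5 was again higher near ends. Among KAP1 peaks it was 69.7% near ends and 57.5% in the interior, with 59.5% over chromosomes 1 to 22. Pol II had 64.8% and 49.3% (54.2% over all), Cdk9 50.1% and 26.01% (29.5%), Larp7 35.3% and 15.6% (17.6%), and Hexim1 32.2% and 12.03% (13.8%). Against peaks 1 to 5 Mb from an end, the Pol II share was lower near ends, 64.8% against 66.0%, and that of merged sites higher, 25.7% against 19.3%. Peaks near ends were also wider, with medians of 811 bp against 432 bp in the Larp7 list, 804 bp against 415 bp in the Hexim1 list, 697 bp against 478 bp in the KAP1 list and 671 bp against 389 bp in the Cdk9 list. Pol II peaks had medians of 292 bp and 286 bp. Peaks 1 to 5 Mb from an end had medians of 714 bp for Larp7, 721 bp for Hexim1, 637 bp for KAP1, 608 bp for Cdk9 and 289 bp for Pol II. Peaks covered 11.1% of near-end sequence and 1.13% of the interior for KAP1, and 26.8% and 5.63% for Hexim1.

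How many peaks and how much of each were used changed the sharing. Within deciles of site width the difference between merged sites near ends and in the interior was 8.16 points. With every peak reduced to its middle and 250 bp on each side, the share in all 5 lists was 9.68% near ends against 6.34% for merged sites, but 20.8% against 38.1% for KAP1 peaks and 12.9% against 28.0% for Pol II peaks, the opposite direction. With the 20000 peaks of highest −log10 p per list it was 9.72% near ends and 9.90% in the interior, a difference of -0.18 points (-1.42 to 1.20). With a −log10 q of at least 5 it was 3.60% and 3.56%.

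A larger share of Pol II peaks near ends lay inside genes, and a smaller one at their starts. Inside coding genes, away from promoters, lay 70.9% of Pol II peaks near ends and 56.8% in the interior, and at coding promoters (the annotated 5′ end and 1 kb on each side) 9.32% and 20.0%. Coding genes with their promoters made up 56.0% of near-end sequence and 46.5% of the interior. Inside genes Pol II density was 128 peaks per Mb of all sequence near ends against 14.7 (8.73-fold), and at promoters 16.8 against 5.17 (3.26-fold). Sites in all 5 lists were placed alike: 61.0% inside coding genes near ends against 43.2%, and 15.3% at coding promoters against 33.0%.

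Pol II lay in more gene bodies near ends. Among coding genes of at least 4 kb with Pol II at the promoter, 426 of 481 near ends (88.6%, 85.4 to 91.3) had a Pol II peak in the gene body (what lies more than 2 kb downstream of the start), against 7363 of 11006 in the interior (66.9%, 66.0 to 67.8). A median of 14.1% of the body was covered by Pol II peaks near ends and 0.702% in the interior. KAP1 covered 13.9% against 0.320%, Cdk9 21.2% against 1.99%, Larp7 39.3% against 5.49% and Hexim1 46.0% against 8.65%. Genes near ends were shorter (median 15.8 kb against 29.4 kb). In each quintile of gene length the share with Pol II in the body was higher near ends by 21.0 to 26.2 points; in the shortest, 4.01 to 12.5 kb, it was 88.7% near ends and 62.6% in the interior. Among genes 1 to 5 Mb from an end the share was 87.7%. The median part of the body covered there was close to that near ends. It was 11.6% for Pol II, 13.3% for KAP1, 20.7% for Cdk9, 39.5% for Larp7 and 45.7% for Hexim1.

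Promoters near ends were occupied more often. All 5 proteins were found at 503 of 636 coding promoters near ends (79.1%, 75.7 to 82.2), against 9987 of 16843 in the interior (59.3%, 58.5 to 60.0) and 61.5% over all. Pol II was at 85.7% near ends against 70.3% (71.8% over all), KAP1 at 81.3% against 64.1% (66.2%), Larp7 at 87.6% against 74.8% (76.4%), Hexim1 at 89.3% against 78.4% (79.9%) and Cdk9 at 84.6% against 68.5% (70.5%). No protein was found at 8.96% of promoters near ends and 18.4% in the interior. Among promoters with Pol II, KAP1 was present at 93.6% near ends and 87.0% in the interior. Promoters near ends had a median of 62.8% GC, against 54.3%. Within deciles of promoter GC the share with all 5 was 79.1% near ends against 80.4%, a difference of -1.33 points, and against promoters 1 to 5 Mb from an end it was 2.90 points (-0.96 to 6.52).

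**Figure D5:**
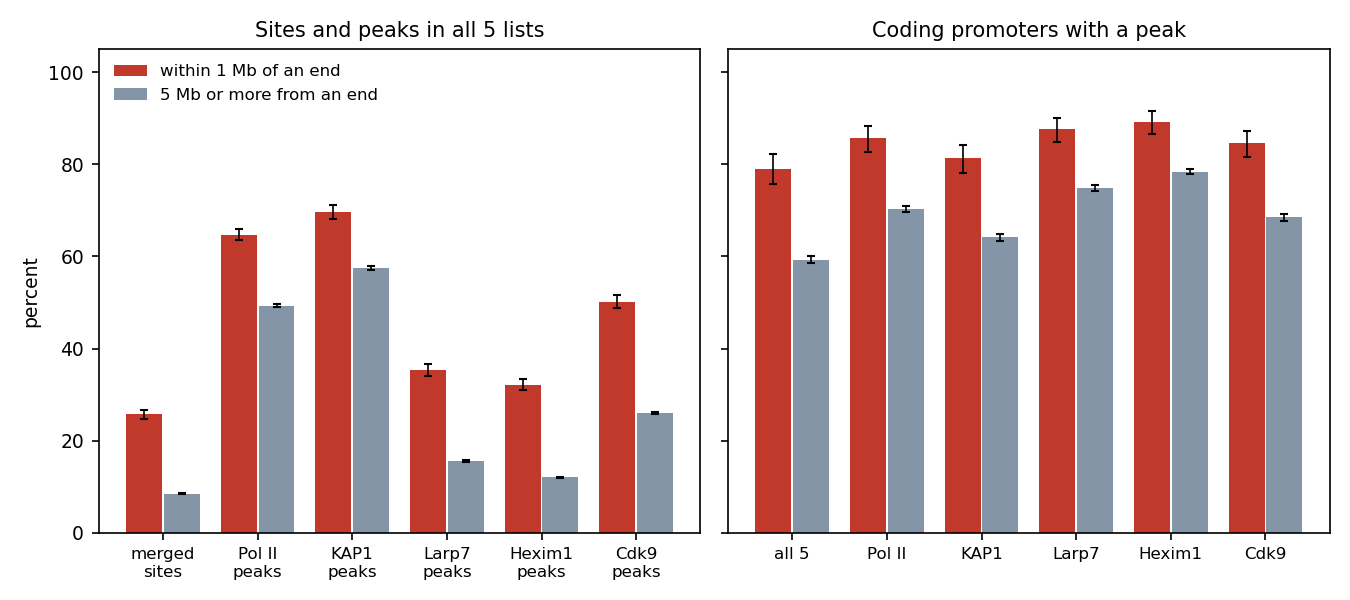
Left, percent of merged sites and of each list's peaks in all 5 lists; right, percent of coding promoters with all 5 lists or with each list; near ends in red (left bar), the interior in grey (right bar), whiskers exact 95% intervals. Merged sites in all 5 lists stand at 25.7% near ends against 8.43%, and promoters with all 5 at 79.1% against 59.3%.

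The strongest Pol II promoter near an end with all 5 proteins was that of TRIM28, the gene of KAP1 itself, 73.6 kb from the end of 19q. Its Pol II fold was 176 and its KAP1 fold 6.98, with 5.67 for Cdk9, 6.39 for Larp7 and 9.71 for Hexim1. On 11p the shared promoter of RPLP2, a ribosomal stalk protein gene, and PIDD1, a death domain protein gene, had a Pol II fold of 163, and that of POLR2L, a subunit gene of Pol II itself, and TSPAN4, a tetraspanin gene, had 158. ZNF837 on 19q had 151, HES4, a Hairy-family repressor gene, and the interferon-induced ISG15 on 1p shared 147, PIM3, a kinase gene, on 22q had 143 and PPDPF on 20q had 142. KAP1 fold in these 10 ran from 4.25 at HES4 and ISG15 to 6.98 at TRIM28. Genes whose windows overlap share a value here, so the pairs are not separate measurements.

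KAP1 fold at near-end promoters was highest at the pair EXD3 and NOXA1, an oxidase activator gene, on 9q (9.26). RPL13, a ribosomal protein gene, on 16q had 8.34, ZNF84 on 12q 8.23, the pair ANKRD11, a chromatin regulator gene, and SPG7, a mitochondrial protease gene, on 16q 8.04, TLCD3A on 17p 7.93 and PDCD6, a calcium-binding protein gene, on 5p 7.93. Pol II fold in these 8 lay between 73.2 and 133. A KAP1 peak was missing within 1 kb of BSG, a cell surface glycoprotein gene, on 19p (Pol II fold 157), CHMP2A, an ESCRT gene, on 19q (82.8), PGBD2 on 1q (65.5), THOC1, a gene of mRNA export, on 18p (50.2) and RHBDF1 on 16p (45.9). At BSG a KAP1 peak of fold 9.05 lay outside that window but in the merged site that reaches into it, chr19:572088-573756. RHBDF1 has its Pol II fold in common with MPG, whose window overlaps its own and had a KAP1 peak of fold 5.98.

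Where a near-end promoter had Hexim1 without Pol II, the highest Hexim1 folds were 6.17 at ELANE, the neutrophil elastase gene, on 19p, 6.15 at NEU4, a sialidase gene, on 2q, 6.02 at IL17REL on 22q, 5.83 at CETN1, a centrin gene known from testis, on 18p and 5.63 at S100B, a calcium-binding protein gene known from glia, on 21q. Larp7 and Cdk9 were present at each of the 5, with folds of 4.93 to 7.03 and 2.83 to 6.75. KAP1 was present at ELANE, NEU4 and CETN1, with folds of 3.88 to 4.59, and missing at IL17REL and S100B.

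Coding genes with all 5 proteins lay close to several ends. The nearest was DOC2B, a vesicle release gene, 31.4 kb from the end of 17p, with a Pol II fold of 48.5 and a KAP1 fold of 6.16. ANHX lay 39.4 kb from the end of 12q (Pol II 5.27, KAP1 5.10) and FAM110C 46.9 kb from that of 2p (28.0 and 6.27). ZNF595 lay 53.2 kb from the end of 4p (8.26 and 7.13), UBE2M, a NEDD8-conjugating enzyme gene, 58.7 kb from that of 19q (67.8 and 4.51) and PARD6G, a polarity gene, 71.9 kb from that of 18q (37.2 and 4.55).

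Most copies of the repeated subtelomeric families had no peak at their 5′ end. Over 15 families there were 100 annotated copies near ends, of which 73 (73.0%, 63.2 to 81.4) had no peak within 1 kb and 6 (exact interval 2.23 to 12.6%) had all 5 proteins, against 74 and 13 of 132 copies in the interior. Among all coding promoters near ends 8.96% had no peak and 79.1% had all 5. Most of the family copies are pseudogenes or lncRNA genes, so coding promoters are an unlike base. The share over all pseudogenes and lncRNA genes was not computed. With the handling of multiply mapping reads unknown, a copy without a peak cannot be called unoccupied. Some entries overlap at one locus. Of 17 OR4F entries, olfactory receptor genes and their pseudogenes, 16 had no peak, and OR4F6 had a KAP1 peak alone (fold 3.34). No peak of any list was found at the 2 MIR1302 host genes, 5 FAM138, 4 FAM157 and 6 SEPTIN14P copies. CICP pseudogenes had none at 8 of 10, the others carrying Hexim1 alone, and RPL23AP pseudogenes none at 8 of 10.

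Copies with several proteins were few and differed within a family. DDX11L8 on 12p had all 5, DDX11L5 on 9p had all but Pol II (KAP1 fold 5.58), and the 1p entries DDX11L1 and DDX11L2 had no peak within 1 kb of their 5′ end, the 1p site described above lying outside that window. In the interior, 1 DDX11L entry had all but Larp7. The WASH genes, which encode an actin regulator and its pseudogenes, had all 5 at WASHC1 on 9p (Pol II fold 4.21) and WASH8P on 12p (27.4), 3 at WASH4P on 16p, and none at WASH7P and WASH5P. TUBB8, a tubulin gene of the oocyte, on 10p had all but KAP1 (Pol II fold 11.4) and TUBB8P7 on 16q all but Pol II. FRG1 on 4q had all 5 (Pol II 56.8, KAP1 7.26), while FRG2 and FRG2B had no peak. RABL2B, a small GTPase gene, on 22q had all 5 (45.9 and 3.59). IL9RP2 and IL9RP3 had 3 lists each and the RPL23AP53 promoter had 4. The RPL23AP53 window overlaps that of ZNF596 with the same folds, and ZNF596 is counted again among the ZNF genes below.

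The DUX4 repeats, which hold the gene of an embryonic transcription factor on 4q and a related array on 10q, had no peak at 13 of 17 copies near ends. DUX4 itself had none. DUX4L9 on 4q, outside the main array, had all 5 (Pol II fold 5.43, KAP1 6.78) and DUX4L13 on 10q had all but Pol II (KAP1 4.73), at a site with 15 near-identical copies. In the interior 6 of 8 copies had all 5. Units of an array are near-identical, and which of them a read was given to is not recorded, so counts per copy rest on the authors' alignment.

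Most zinc finger genes near ends carried all 5 proteins. Of 51 coding ZNF genes near ends 0 lacked a peak (exact interval 0 to 6.98%), and 44 (86.3%, 73.7 to 94.3) had all 5 proteins, against 34 (9.02%) and 229 (60.7%, 55.6 to 65.7) of 377 in the interior. Over all coding promoters near ends the share with all 5 was 79.1%, inside the interval of the ZNF share. The genes stood mainly on 19q (26), 12q (7), 8q (6) and 4p (5), so neighbours share clusters. On 12q and 4p all 12 had all 5 proteins, and on 19q 20 of 26 did. KAP1 fold ran from 3.47 to 8.23, with a median of 5.29 over 45 genes with a peak, and Pol II fold from 4.22 at ZNF605 to 151 at ZNF837. ZNF595, ZNF718, ZNF732 and ZNF141 on 4p had low Pol II fold (4.75 to 8.26) with KAP1 at 7.13, 4.85, 6.02 and 5.66, and ZNF721 next to them had a Pol II fold of 120 with KAP1 at 3.90. The values of ZNF721 are shared with PIGG and those of ZNF605 with CHFR, whose windows overlap theirs.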

How the data were processed

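Reads had been aligned with Bowtie 1.1 to hg19 and peaks called with MACS2, per the submitters' processing notes. Not given in the sources used here were the control library, the read depth, the treatment of duplicate and multiply mapping reads and the calling thresholds. Each deposited list gives for every peak the authors' fold (a ratio over background), their −log10 p-value and their −log10 q-value. There is 1 list per library. From these lists, peaks were placed by their middle, joined where they overlapped by at least 1 bp, and set against GENCODE 44 genes on GRCh37 with promoters of 1 kb on each side of the 5′ end. Density used sequence without N. Shares have exact Clopper-Pearson intervals, differences of shares Newcombe intervals and density ratios exact conditional intervals, all at 95%. Near-identical copies were sought with minimap2 2.31, sequences read with samtools 1.23.1, and the rest computed in Python 3.11.15 with numpy 2.4.6, pandas 2.3.3, scipy 1.17.1 and matplotlib 3.10.9. The density ratios, the count of sites in all 5 lists and the overlap rule were tested on simulated data with known answers. The other measures were not tested in that way. Genes were named by rank: the 10 of highest Pol II fold with all 5 proteins, the 8 of highest KAP1 fold, the 5 of highest Pol II fold without KAP1, the 5 of highest Hexim1 fold without Pol II, the nearest with all 5 at each of 6 ends, and family copies with 3 or more lists. Other genes and the gene-body measure were chosen after values were seen. Members, lists and measures were chosen with earlier results of these data known. Some sequences at these sites are not reported here.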

Additional observations from a re-analysis of the deposited data

How the results depend on the processing

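Of 159 alternative values, 139 kept the direction given in the text and 20 turned round. Density ratios are given here in the order Pol II, KAP1, Cdk9, Larp7 and Hexim1. They were 1.35, 1.23, 1.16, 1.08 and 1.07 against the stretch 1 to 5 Mb from an end, 2.72, 2.27, 1.36, 0.945 and 0.773 per coding gene, and 2.03, 1.80, 1.40, 1.09 and 0.990 within GC deciles. With 20000 peaks per list they were 5.85, 5.32, 4.91, 4.32 and 3.31, and with a −log10 q of at least 5 they were 7.47, 4.32, 3.98, 4.63 and 4.37. Merging peaks of 1 list within 1 kb gave 4.70, 5.04, 2.96, 2.09 and 1.75, and counting each merged site once, added after seeing the data, gave 3.87, 4.14, 2.65, 2.23 and 1.89. A zone of 500 kb gave 4.99, 4.59, 2.84, 2.13 and 1.81. A zone of 2 Mb gave 7.82, 6.30 and 3.65 for Pol II, KAP1 and Cdk9, and leaving out chromosomes 8, 10, 16, 17 and 18, on which the line is known to carry gains or translocations, gave 6.41, 5.58 and 3.27. The difference in merged sites in all 5 lists was 6.44 points against 1 to 5 Mb, -0.18 with 20000 peaks, 3.34 with peak middles, 0.0435 with the q limit, 9.54 within GC deciles, 8.16 within width deciles, 15.7 without the 5 chromosomes and 15.6 with 500 kb. For coding promoters with all 5 it was 2.90 against 1 to 5 Mb, 8.92 with 20000 peaks, 4.41 with the q limit, -1.33 within GC deciles and 12.8 with 500 kb. Shares of each list ran from -17.4 to 25.1 points over 85 alternatives, and 15 turned round. With 20000 peaks these were Cdk9 -0.81, KAP1 -2.65 and Pol II -2.06. With peak middles they were Cdk9 -1.44, KAP1 -17.4 and Pol II -15.1. With the q limit they were Cdk9 -0.0798, Hexim1 -0.31, KAP1 -2.70, Larp7 -0.97 and Pol II -1.84. Against 1 to 5 Mb they were Pol II peaks -1.22 and promoters with Cdk9 -0.0904, Hexim1 -1.45 and Larp7 -0.77. The cause of these changes was not tested. No paired analysis was possible because each antibody has 1 library. With the read depth unknown and the lists of unequal length, a missing peak says only that none was called.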
